A study of Homo sapiens with 36 samples.

Results

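The 10 genes described here encode transcription factors and a coactivator that mark stages of B-cell life. They are SOX11, PAX5, EBF1, POU2AF1, IRF4, IRF8, BCL6, BACH2, PRDM1 and SPIB, chosen by symbol out of the 58302 gene IDs in the count tables. All 10 were found and all 10 passed the low-count filter in each fit. RNA had been sequenced from the established cell lines JEKO, UPN-1 and MINO, all 3 from human mantle cell lymphoma. Cultures had been given GS716054, an inhibitor of the KDM5 histone lysine demethylases, or the vehicle DMSO, and were collected 24 h or 72 h later. The 12 groups of line, treatment and time held 3 biological replicates each, 36 libraries in all. Cells of every group grew in RPMI-1640 with FBS, L-glutamine and antibiotics, and the dose was not given in the sources used here. Each line is 1 tumour grown in culture, so p-values measure the spread between cultures of that line and not between patients.

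Mature B cells keep their identity through PAX5 and EBF1, which switch on genes such as CD79A and CD79B. A germinal centre B cell raises BCL6 and IRF8 and is held back from secretion by BACH2 and PAX5. Plasma cell differentiation reverses this: IRF4 rises, PRDM1 (also called BLIMP-1) shuts down PAX5, BCL6 and SPIB, and antibody secretion begins. SOX11 is absent from normal B cells and is a hallmark of conventional mantle cell lymphoma, where it has been linked to high PAX5 and blocked plasma cell maturation. KDM5 enzymes remove methyl groups from lysine 4 of histone H3, a mark of active promoters.

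Gene reads per library numbered 8784815 at the lowest and 14970876 at the highest. The B-cell genes CD79A, CD79B, MS4A1 and CD22 were detected in all 36 libraries, as were CCND1 and SOX11, used here as markers of mantle cell lymphoma. CD5, the surface antigen usual in mantle cell lymphoma, was 58.1 to 102 CPM (read counts scaled to library size) in MINO but 0.834 to 6.04 CPM in UPN-1. CD2, MPO, HBB and COL3A1, genes of T cells, myeloid cells, erythroid cells and stroma, had 0 reads in every library. Other markers of those classes were detected, with TRAC, a T-cell receptor gene, at 32.3 to 173 CPM, PDGFRB at 0.118 to 10.8, EPCAM at 0.107 to 16.0 and LYZ at up to 6.22. Among distances to the other libraries of the same group, MINO replicate 2 and JEKO replicate 1 stood apart at 72 h in both treatments. Their distances were 0.648 to 0.755 on the log2 scale, against at most 0.62 for the other 32 libraries.

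Positions follow GENCODE v44 on GRCh38. SOX11 (ENSG00000176887) is a gene of 1 exon at chr2:5692384-5701385 on the plus strand. On that strand too are IRF4 (ENSG00000137265, chr6:391739-411443), IRF8 (ENSG00000140968, chr16:85899116-85922606), PRDM1 (ENSG00000057657, chr6:105993463-106109939) and SPIB (ENSG00000269404, chr19:50418938-50431314). The minus strand holds PAX5 (ENSG00000196092, chr9:36833269-37034268), EBF1 (ENSG00000164330, chr5:158695920-159099916), POU2AF1 (ENSG00000110777, chr11:111352255-111455630), BCL6 (ENSG00000113916, chr3:187721377-187745725) and BACH2 (ENSG00000112182, chr6:89926528-90296843). Exons of genes on the opposite strand cover 5.3% of the exon bases of BCL6, 3.8% of BACH2, 3.4% of POU2AF1 and 1.3% of PAX5. Whether the counting used strand was not given in the sources used here, so reads of those stretches cannot be told apart.

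Start regions are shown for the 4 members on which the treatment results turn. RefSeq windows (GRCh38.p14) were matched for 8 of the 10 members, and SOX11 and POU2AF1 had no entry in the table used. Each stretch below is the 250 bases before the annotated transcript start, 5′ to 3′ on the gene's strand, with motif matches in capitals. IRF4 lies at chr6:391502-391751 on the plus strand, SPIB at chr19:50418688-50418937 on the plus strand, PRDM1 at chr6:106086086-106086335 on the plus strand and BCL6 at chr3:187745469-187745718 on the minus strand.
IRF4: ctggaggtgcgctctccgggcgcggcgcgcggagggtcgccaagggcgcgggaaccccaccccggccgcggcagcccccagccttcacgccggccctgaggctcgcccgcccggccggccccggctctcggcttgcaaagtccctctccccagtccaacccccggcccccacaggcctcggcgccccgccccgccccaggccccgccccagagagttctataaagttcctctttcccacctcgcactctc
SPIB: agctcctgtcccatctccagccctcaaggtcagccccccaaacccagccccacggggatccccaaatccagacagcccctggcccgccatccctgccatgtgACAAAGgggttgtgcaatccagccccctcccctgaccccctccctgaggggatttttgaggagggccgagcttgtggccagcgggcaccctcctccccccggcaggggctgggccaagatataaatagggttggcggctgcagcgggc
PRDM1: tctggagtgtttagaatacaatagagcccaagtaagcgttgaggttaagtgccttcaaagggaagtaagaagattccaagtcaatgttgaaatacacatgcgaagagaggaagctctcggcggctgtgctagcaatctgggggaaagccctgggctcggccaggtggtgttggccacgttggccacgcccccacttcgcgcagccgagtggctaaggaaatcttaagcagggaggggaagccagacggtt
BCL6: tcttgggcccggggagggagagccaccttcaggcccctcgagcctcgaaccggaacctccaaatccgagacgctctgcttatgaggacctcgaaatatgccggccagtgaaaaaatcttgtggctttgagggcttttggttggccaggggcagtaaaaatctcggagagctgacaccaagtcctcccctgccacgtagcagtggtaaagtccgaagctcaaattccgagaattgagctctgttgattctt
Motifs were searched on both strands of windows that also held the 50 bases after the start. The SOX core ACAAAG was found in 16.1% of all 35116 windows and in those of SPIB and PRDM1. In PRDM1 the match began at base 8 after the start, in the 21 bases of chr6:106086336-106086356.
PRDM1 site: aacacagACAAAGtgctgccg
BCL6 carried the BCL6 motif TTCCTNGAA, which was present in 1.56% of windows, as its reverse complement within chr3:187745419-187745440.
BCL6 site: caagaagtTTCTAGGAAaggcc
No match to the IRF repeat (3.57% of windows), the ETS-IRF composite (2.82%), the octamer ATGCAAAT (1.77%), the PRDM1 motif GAAAGTG (4.68%), the EBF1 motif (1.21%) or the second SOX core AACAAT (10.1%) lay in these 4 windows. The composite and the repeat overlap, since both hold a GAAA and may use the same one. The IRF4 window held 32 CpG, more than 81.1% of windows, whereas those of PRDM1, BCL6 and SPIB held 14, 12 and 11, near the median of 14. These are descriptions of letters in the window, since binding was not measured.

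Without treatment the 3 lines carried different mixtures of these factors. In comparisons between lines, the line cannot be told apart from any unlabelled batch. Levels of different genes were compared in DMSO at 24 h as CPM per kilobase of exon. The length covered all annotated exons of a gene. The transcripts expressed were not measured, so the order of genes depends on that length. IRF8, a factor of germinal centre and immature B cells, was highest in JEKO at 47.8 ± 1.08 CPM per kilobase (SD, n = 3). It was followed there by POU2AF1 (36.8 ± 2.94), SPIB (23.7 ± 1.08), IRF4 (23.7 ± 2.42) and PAX5 (22.9 ± 2.52), of which the last 3 did not differ beyond their SD. In MINO the order was led by IRF4 at 73.2 ± 12.6, then SPIB at 46.7 ± 2.63, with POU2AF1 (19.7 ± 0.406), SOX11 (18.2 ± 1.10) and PAX5 (17.3 ± 1.65) close together. UPN-1 had IRF4 at 40.3 ± 0.203 and SPIB at 38.1 ± 4.10, within their SD of each other, above PAX5 at 32.2 ± 4.58. IRF8 (23.8 ± 1.83), POU2AF1 (23.1 ± 1.86) and BACH2 (22.1 ± 2.32) formed the next tier of UPN-1. PRDM1, the plasma cell repressor, and BCL6, the germinal centre repressor, were the lowest 2 in every line, at 0.816 to 1.54 and 0.469 to 0.778 CPM per kilobase. Their libraries held 36 to 178 reads for PRDM1 and 20 to 248 for BCL6, so their values carry more counting error than those of the other 8.

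**Figure D1:**
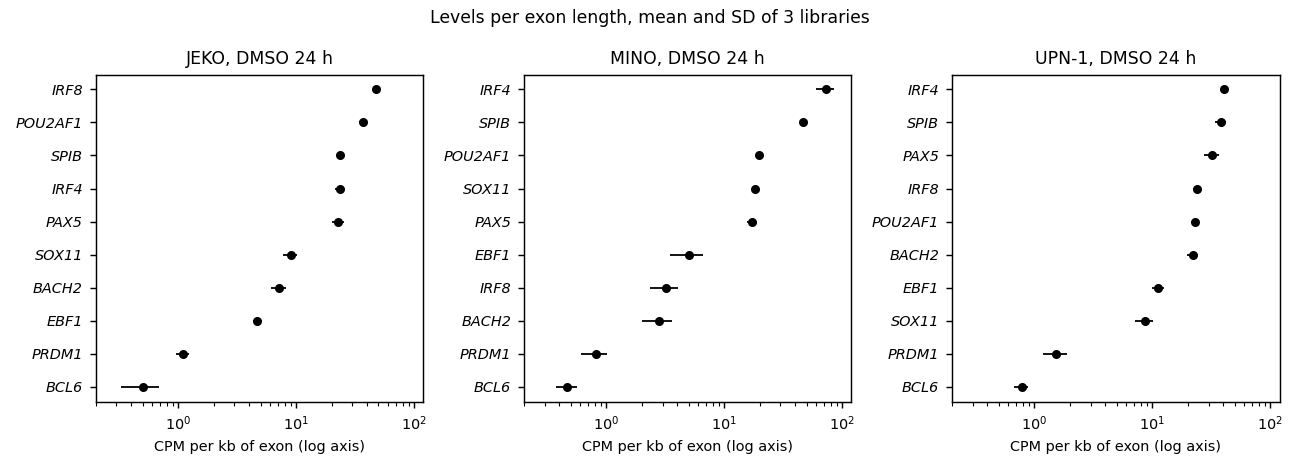
CPM per kilobase of exon (log axis) of the 10 genes in DMSO cultures at 24 h, by line, in the order of their levels, with points at the mean of 3 libraries and bars of 1 SD. PRDM1 and BCL6 sat lowest in all 3 lines, and IRF8 ran from 47.8 in JEKO to 3.20 in MINO.

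IRF8 and BACH2 separated the lines most. On the CPM scale, IRF8 in DMSO at 24 h was 372, 385 and 369 in JEKO, 201, 188 and 172 in UPN-1 and 24.5, 32.0 and 18.8 in MINO, with no overlap between lines. MINO was 14.9-fold below JEKO (edgeR quasi-likelihood test on 36 libraries, log2 difference -3.90, SE 0.304, adjusted p = 3.7e-12). BACH2, which represses PRDM1 and keeps B cells from becoming plasma cells, was 212, 257 and 253 CPM in UPN-1, 66.8, 89.0 and 78.9 in JEKO and 35.7, 20.4 and 35.5 in MINO. UPN-1 stood 7.90-fold above MINO (log2 2.98, SE 0.291, adjusted p = 5.41e-10), and MINO 2.57-fold below JEKO (adjusted p = 0.000145). IRF4 ran the other way from IRF8, from 141 ± 14.4 CPM in JEKO and 240.5 ± 1.21 in UPN-1 to 436 ± 75.4 in MINO. All 3 pairs of lines differed in IRF4, and MINO exceeded JEKO 3.09-fold (log2 1.63, SE 0.204, adjusted p = 6.69e-08).

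SOX11 in DMSO at 24 h was 166, 152 and 172 CPM in MINO, against 80.8, 91.7 and 70.3 in JEKO and 63.0, 80.1 and 90.9 in UPN-1. MINO was 2.02-fold above JEKO (adjusted p = 0.000172) and UPN-1 2.09-fold below MINO (adjusted p = 0.000104), while UPN-1 and JEKO overlapped (adjusted p = 0.866). EBF1 was highest in UPN-1, 2.38-fold above JEKO (adjusted p = 1.19e-05) and 2.23-fold above MINO (adjusted p = 3.68e-05). PAX5 was 1.86-fold higher in UPN-1 than in MINO (adjusted p = 0.000857), and its other 2 differences missed the threshold. SPIB was lower in JEKO than in MINO (1.97-fold, adjusted p = 5.47e-05) and UPN-1 (1.61-fold, adjusted p = 0.00286). POU2AF1 was 1.86-fold lower in MINO than in JEKO (adjusted p = 0.018), a call that ended without JEKO replicate 2 (adjusted p = 0.0529) or MINO replicate 1 (0.0506). PRDM1 was 1.89-fold higher in UPN-1 than in MINO (adjusted p = 0.00951), which ended without MINO replicate 2 (0.0561) or UPN-1 replicate 3 (0.067). BCL6 passed in no pair of lines. In all, 6 of 10 genes were called for MINO against JEKO, where 48% of all genes were called, 5 for UPN-1 against JEKO (44.9%) and 7 for UPN-1 against MINO (44.4%). These shares are near those of all genes, so the counts do not set the 10 genes apart.

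Few members passed the test for GS716054 against DMSO. With a model of the 12 libraries of each line, 2 of the 60 tests were called at an adjusted p under 0.05 over all genes. They were PRDM1, higher in JEKO at 72 h (1 of 10, against 0.3% of all genes), and SPIB, higher in MINO at 72 h (1 of 10, against 5.56%). At 24 h none of the 10 was called in any line (0.018% of all genes for JEKO, 2.39% for MINO and 0.0262% for UPN-1), and none in UPN-1 at 72 h (0.334%). At an unadjusted p under 0.05, those 4 comparisons held 0, 5, 1 and 3 members, against 3.97%, 17.7%, 3.78% and 7.41% of all genes. DESeq2 called 0, 2, 0 and 1, against 0.186%, 6.23%, 0.138% and 1.08% of all genes. At 24 h treated and DMSO libraries did not overlap for 7 of 10 members of MINO (35% of all genes), 3 of UPN-1 (14.8%) and 2 of JEKO (12.5%). The counts at 72 h were 2 for MINO (22.4%), 3 for UPN-1 (8.94%) and 2 for JEKO (11.3%).

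DMSO and GS716054 libraries of the same replicate number deviated together from their group means by a rule of r over 0.1 in each pair, except in JEKO at 24 h. JEKO there had r of 0.134, 0.055 and 0.216, near the 0.107 to 0.267 of the other lines at 24 h. In MINO at 72 h a pair of different numbers reached 0.33, above the 0.284 of the number 3 pair. Values from a fit with the number as a term within each time, chosen after seeing the data, are given as the paired fit. A value after the words "paired fit" is the adjusted p of that fit. At 24 h the paired fit called 6 of 10 members for MINO (15.8% of all genes) and 2 for UPN-1 (1.5%), and at 72 h 2 for JEKO (3.34%), 3 for MINO (20.2%) and 5 for UPN-1 (7.47%). An additive term for the number over both times, the planned form, called 3, 0, 1, 3 and 1 (6.61%, 0.0787%, 0.677%, 10.2% and 1.46% of all genes). The paired fit of JEKO at 24 h called none (0.0899%). A bulk library cannot tell fewer expressing cells from less RNA per cell.

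**Figure D2:**
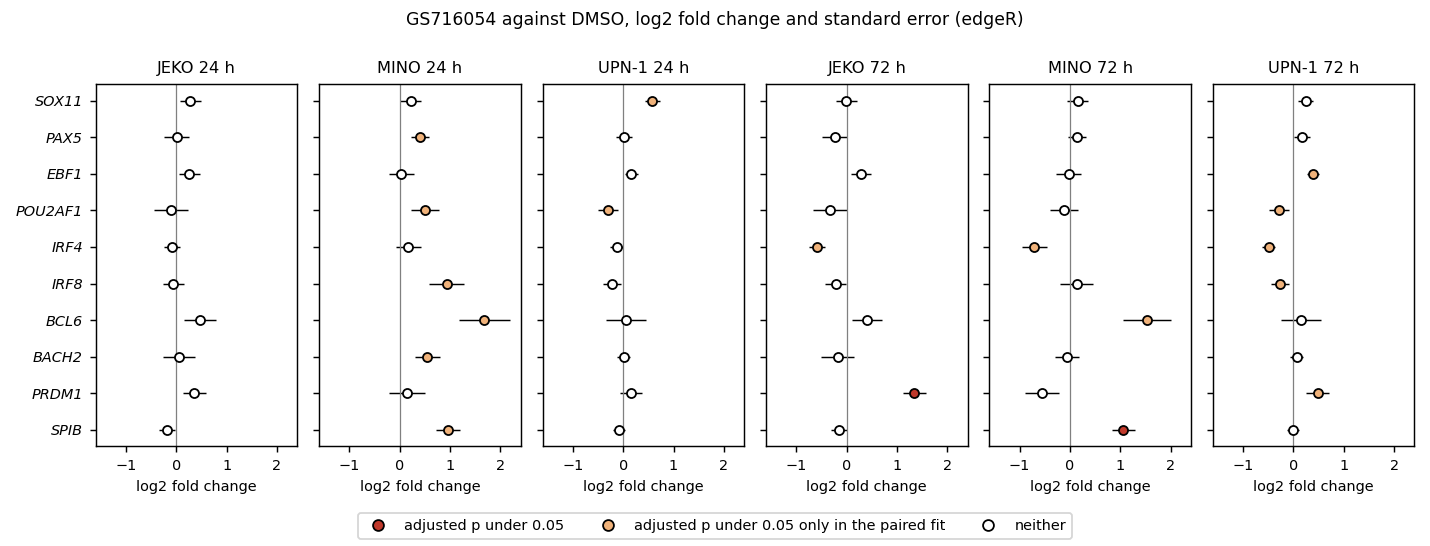
Log2 fold change of GS716054 against DMSO for the 10 genes in each line at 24 h and 72 h, with bars of 1 SE from the edgeR model of each line (red, called; orange, called only in the paired fit; white, neither). IRF4 lies below 0 in all 3 lines at 72 h, SPIB and BCL6 above 0 in MINO at both times, and PRDM1 at 1.34 in JEKO at 72 h.

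IRF4, which drives both activation and plasma cell fate depending on its dose, was lower in treated cells of all 3 lines at 72 h. In JEKO the DMSO libraries had 189, 187 and 208 CPM and the treated ones 158, 132 and 100.2. MINO had 571, 1098 and 572 in DMSO against 434, 562 and 379 after GS716054, and UPN-1 281, 252 and 227 against 214, 171 and 151. No treated library reached its line's DMSO range, and all 9 same-numbered pairs were lower in the treated culture, at 0.481 to 0.836 of the DMSO value (median 0.679). Averaged over the lines, IRF4 was lower in treated than in DMSO cells by 0.60 on the log2 scale (SE 0.115, edgeR adjusted p = 0.00146), the 1 member of 10 called in that comparison (4.66% of all genes). It passed with each of the 18 libraries at 72 h left out in turn. The paired fit called 6 members (16.7% of all genes), with EBF1, BCL6, PRDM1 and SPIB higher and POU2AF1 and IRF4 lower, and the additive form called 3 (8.6%), IRF4, BCL6 and PRDM1.

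In the filtered edgeR model of the 12 libraries of each line, the lower IRF4 of treated cells passed only once the pairing was used. The log2 change at 72 h was -0.58 in JEKO (SE 0.158, adjusted p = 0.185, paired fit 0.0354), -0.71 in MINO (SE 0.253, adjusted p = 0.118, paired fit 0.00335) and -0.49 in UPN-1 (SE 0.132, adjusted p = 0.174, paired fit 3.45e-05). MINO without replicate 2 of both treatments gave -0.52 (adjusted p = 0.0554). A test of whether the 3 lines differed at 72 h gave an unadjusted p of 0.779 and an adjusted p of 0.998. At 24 h the means were 141 ± 14.4 and 135 ± 7.42 CPM in JEKO, 436 ± 75.4 and 502 ± 92.7 in MINO and 240.5 ± 1.21 and 221 ± 14.3 in UPN-1, for DMSO and GS716054. At 72 h they were 195 ± 11.7 and 130 ± 29.1 CPM in JEKO and 747 ± 304 and 459 ± 93.8 in MINO. UPN-1 then had 253 ± 26.7 and 178 ± 32.1. From 24 h to 72 h DMSO means rose in JEKO and MINO, while treated means stayed within their SD. In UPN-1 the treated mean was lower at 72 h and the DMSO mean stayed within its SD. Time in treated cells was not tested. The mean change over lines at 24 h was 0.00 (SE 0.115), yet the difference between times passed in no line (adjusted p = 1.0, 0.929 and 1.0 in JEKO, MINO and UPN-1).

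**Figure D3:**
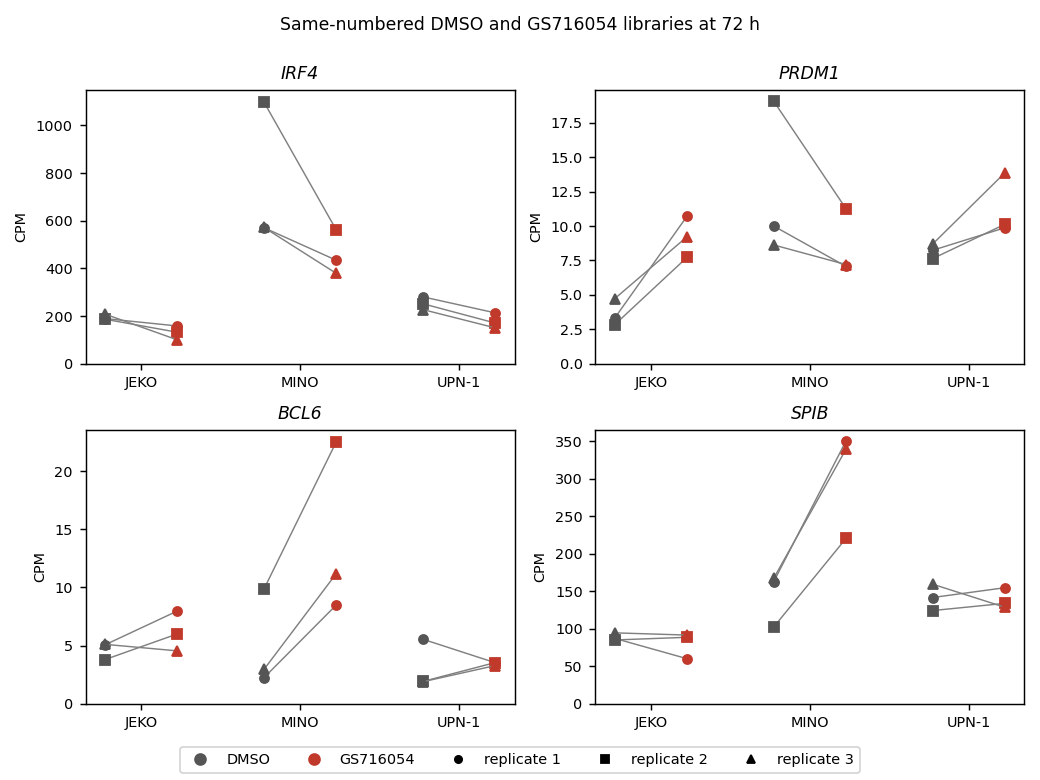
CPM at 72 h of IRF4, PRDM1, BCL6 and SPIB by line, with a line joining each DMSO library (left) to the GS716054 library of the same number (right). IRF4 goes down in all 9 pairs, and SPIB goes up in the 3 MINO pairs by 2.03 to 2.15 times.

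IRF8 passed in the paired fit in MINO at 24 h, with higher treated values, and in UPN-1 at 72 h, with lower ones. MINO, where it was lowest, had 24.5, 32.0 and 18.8 CPM in DMSO at 24 h and 44.8, 65.2 and 36.5 after GS716054, without overlap. The log2 change was 0.93 (SE 0.344, adjusted p = 0.175, paired fit 0.00111), with treated libraries at 1.83 to 2.04 times their DMSO partners. At 72 h MINO had 67.0 ± 31.1 CPM in DMSO and 73.7 ± 25.8 in treated cells, higher in 1 of 3 pairs. UPN-1 at 72 h went from 216, 202 and 151 to 181, 177 and 109 CPM, lower in 3 of 3 pairs but overlapping as groups (log2 -0.27, SE 0.178, adjusted p = 0.881, paired fit 0.0073). In JEKO, the line with most IRF8, no change was called at either time, but 3 of 3 pairs were lower at 72 h (0.724 to 0.942 of DMSO). UPN-1 at 24 h was also lower in 3 of 3 pairs (0.841 to 0.889). Over the 3 lines, IRF8 was lower in 8 of 9 pairs at 72 h and in 5 of 9 at 24 h.

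SPIB, an ETS factor of mature B cells and plasmacytoid dendritic cells that works beside PU.1, was 1.95-fold higher in treated MINO at 24 h and 2.08-fold higher at 72 h, and was not called in the other lines. DMSO libraries of MINO had 189, 211 and 199 CPM at 24 h against 368, 511 and 314 after treatment, and 163, 102 and 168 against 351, 221 and 340 at 72 h. The groups did not overlap at either time. The log2 change was 0.96 at 24 h (SE 0.237, adjusted p = 0.0536, paired fit 0.000328) and 1.06 at 72 h (SE 0.237, adjusted p = 0.0224, paired fit 7.66e-05). Without GS716054 replicate 1 or 3 the adjusted p at 72 h became 0.0634 or 0.0781, and 0.131 in a fit of only the 6 MINO libraries of that time. JEKO was at 102 ± 4.62 and 89.4 ± 10.1 CPM at 24 h and 88.9 ± 5.00 and 80.1 ± 17.4 at 72 h, and UPN-1 at 163 ± 17.6 and 155 ± 8.28, then 142 ± 17.6 and 139 ± 13.8. The difference among lines passed at 72 h (adjusted p = 0.0168) and missed at 24 h (adjusted p = 0.0605), where DESeq2 called it (0.00244).

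Markers of other cell types differed between treated and DMSO cells in MINO. The sum of 5 T-cell genes was higher in treated cells, 143 to 174 against 75.2 to 100 CPM at 24 h and 126 to 176 against 70.0 to 105 at 72 h. Almost all of it was TRAC, at 68.9 to 173 CPM in MINO, whereas CD3D and CD2 had 0 reads in all MINO libraries and CD3E and CD3G were at most 4.13 and 0.18 CPM. The sum of 5 myeloid genes went from 1.54 to 3.06 CPM in DMSO to 5.66 to 8.57 in treated MINO at 24 h, and from 0.538 to 1.24 to 1.77 to 4.17 at 72 h, with MPO at 0. Their part in the MINO results was not tested. SPIB shares 19.6% of its exon bases with a readthrough gene on the same strand, which had 0 reads in all libraries.

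BCL6 was 3.20-fold higher in treated MINO at 24 h and 2.87-fold higher at 72 h, from a very low level, and passed in the paired fit. Its DMSO libraries had 2.35, 2.57 and 3.44 CPM at 24 h and the treated ones 8.16, 10.4 and 8.93, with no overlap. At 72 h the values were 2.23, 9.85 and 2.94 in DMSO and 8.48, 22.5 and 11.2 after GS716054. Replicate 2, which stood apart in both treatments, makes the groups overlap there. The log2 change was 1.68 at 24 h (SE 0.503, adjusted p = 0.1, paired fit 0.000506) and 1.52 at 72 h (SE 0.478, adjusted p = 0.0824, paired fit 0.000269). Leaving out replicate 2 of both treatments gave 1.89 at 72 h (adjusted p = 0.000513). Without the pairing DESeq2 called it at 24 h and 72 h (adjusted p = 0.018 and 0.0256), as did a fit of all 36 libraries (0.0245 and 0.0219). JEKO and UPN-1 stayed between 1.89 and 7.97 CPM in all libraries and had no call. BACH2 in MINO was 35.7, 20.4 and 35.5 CPM in DMSO and 45.7, 37.0 and 53.9 in treated cells at 24 h, which did not overlap (log2 0.55, SE 0.243, adjusted p = 0.256, paired fit 0.00817). At 72 h both treatments of MINO were level, at 29.1 ± 7.65 and 28.1 ± 5.44 CPM, and neither fit called BACH2 in another comparison of treatments within a line.

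PRDM1 changed in JEKO at 72 h. The DMSO libraries had 3.33, 2.85 and 4.73 CPM and the GS716054 libraries 10.7, 7.73 and 9.22, a 2.54-fold difference without overlap (log2 1.34, SE 0.228, adjusted p = 0.0225, paired fit 0.00436). DMSO cells of JEKO had less PRDM1 at 72 h than at 24 h, when they held 8.05, 6.32 and 7.72 CPM (log2 -1.01, SE 0.23, adjusted p = 0.00604). Treated cells held 9.55 ± 0.290 CPM at 24 h and 9.23 ± 1.5 at 72 h. Leaving out 1 library ended the treatment call for DMSO replicates 1 and 2 (adjusted p = 0.0706 and 0.07) and treated replicates 1 and 3 (0.0738 and 0.0704). A fit of only the 6 JEKO libraries of that time ended it too (0.282), as did leaving out replicate 1 of both treatments (log2 1.16, adjusted p = 0.131). MINO went the other way at 72 h, from 9.997, 19.1 and 8.62 to 7.07, 11.3 and 7.20 CPM, lower in 3 of 3 pairs but not called (log2 -0.56, SE 0.339, adjusted p = 0.362, paired fit 0.134). UPN-1 at 72 h rose in the paired fit, from 8.24, 7.63 and 8.69 to 9.88, 10.1 and 13.9 CPM (log2 0.48, SE 0.222, adjusted p = 0.664, paired fit 0.0454). The difference among lines at 72 h passed (adjusted p = 0.0333), and with SPIB it made 2 of 10 members (1.01% of all genes). The paired fit added BCL6 (adjusted p = 0.0289) and so called 3 (9.78%). In JEKO at 72 h a sum of 5 stromal and epithelial genes was 11.2 to 15.1 CPM in treated and 7.18 to 10.2 in DMSO cultures, with COL3A1 at 0, and its part in the result was not tested.

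SOX11 had a higher mean in treated cells of each line at 24 h, which passed in UPN-1 in the paired fit. UPN-1 showed this most, with 63.0, 80.1 and 90.9 CPM in DMSO and 103, 116 and 133 after GS716054, a 1.5-fold difference without overlap (log2 0.58, SE 0.149, adjusted p = 0.546, paired fit 0.000407). Without the low-count filter the unpaired fit called it too (adjusted p = 0.0311). MINO had 166, 152 and 172 against 193, 202 and 189, also without overlap (log2 0.22, SE 0.209, adjusted p = 0.625, paired fit 0.216). JEKO had 80.8, 91.7 and 70.3 against 89.1, 121 and 86.7, which overlapped (log2 0.28, SE 0.209, adjusted p = 1.0). The mean change over lines at 24 h was 0.38 (SE 0.121, unadjusted p = 0.0037, adjusted p = 0.15), and no member was called in that comparison (0.929% of all genes). At an unadjusted p under 0.05 it held 3 members (12.5% of all genes), and DESeq2 called none (1.95%). Treated SOX11 was higher in all 9 same-numbered pairs, at 1.1 to 1.63 times the DMSO value (median 1.32). The mean change passed without the low-count filter (adjusted p = 0.0316) and under the replicate block (0.0344), although JEKO at 24 h missed the correlation rule for pairing. By 72 h the groups overlapped in each line, at 94.5 ± 30.3 and 93.7 ± 14.3 CPM in JEKO, 255 ± 91.9 and 285 ± 60.1 in MINO and 94.9 ± 11.6 and 110 ± 12.8 in UPN-1 for DMSO and GS716054. The mean change was then 0.12 (SE 0.12, adjusted p = 0.664). MINO replicate 2 at 72 h held 360.2 CPM in DMSO and 349 after treatment, against 192 to 278 in the other MINO libraries of that time.

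**Figure D4:**
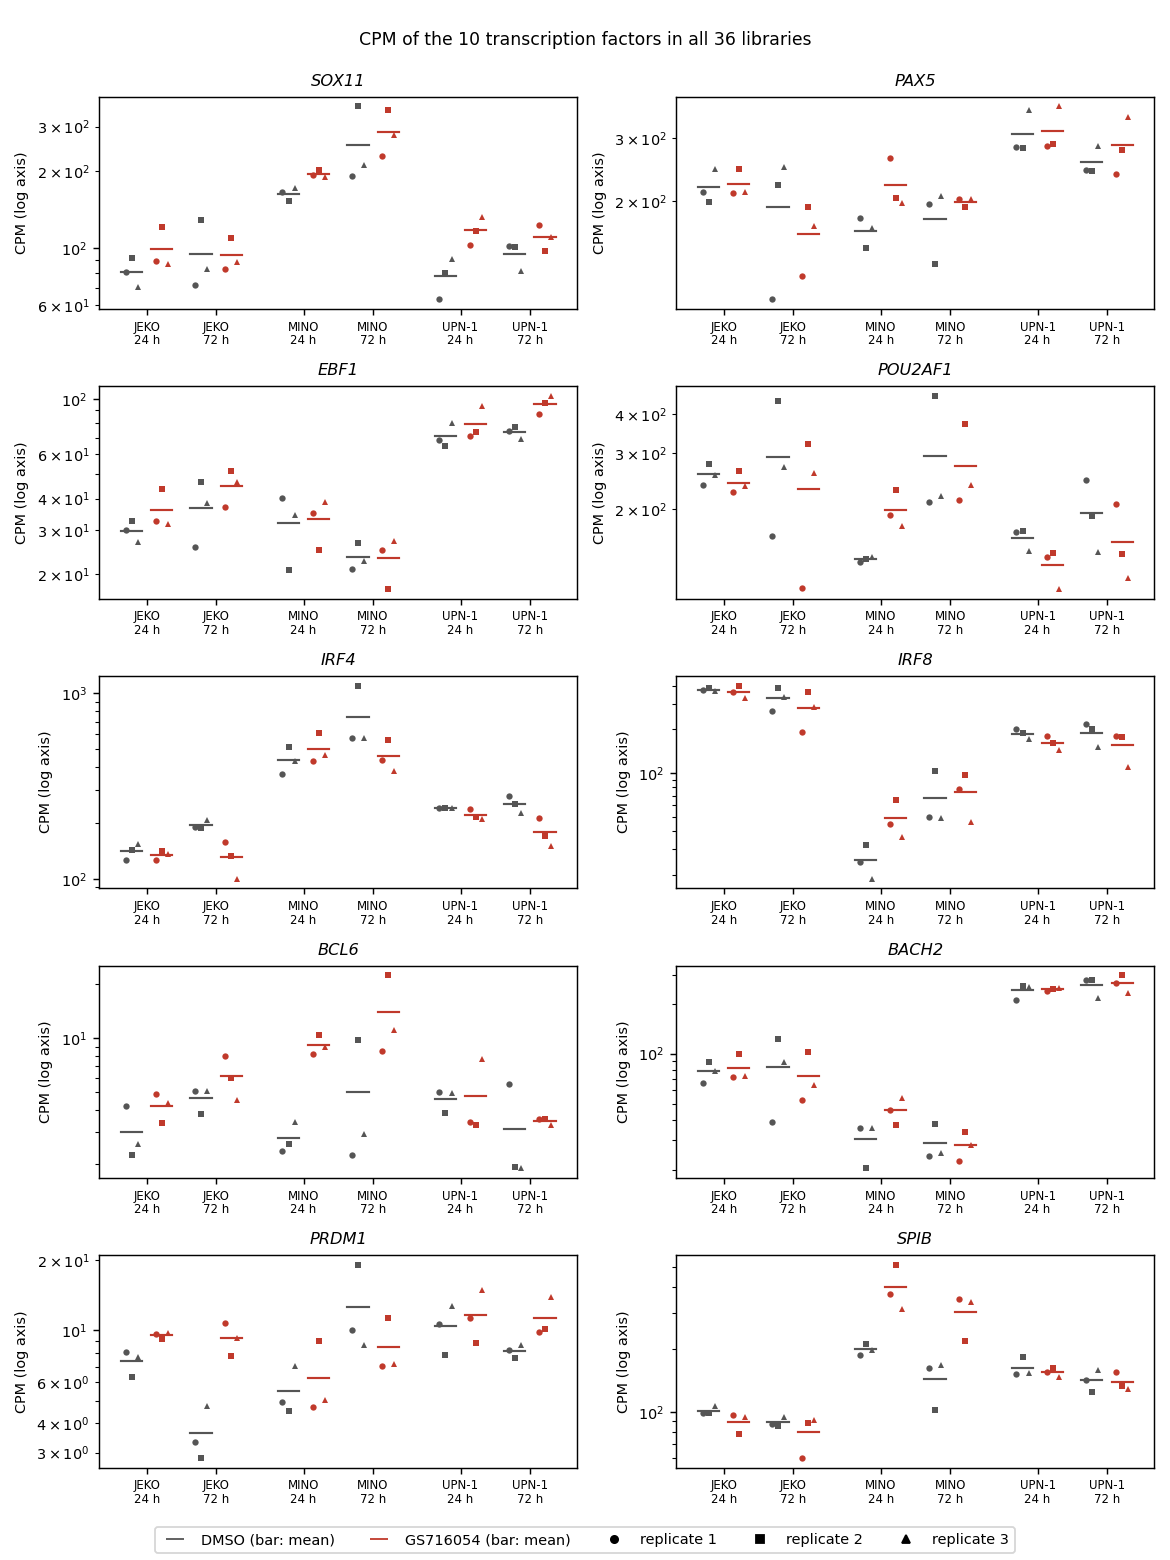
CPM (log axis) of each of the 10 genes in every library, by line, time and treatment, with a bar at the mean of each group of 3. IRF8 and BACH2 separate the 3 lines, and the means of SPIB and BCL6 are higher in treated MINO at both times.

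The identity factors PAX5, EBF1 and the coactivator POU2AF1, which works with octamer-binding proteins at immunoglobulin genes, passed for treatment within a line in the paired fit. Without the pairing no such test passed in the models of 12 libraries, whereas a fit of only the 6 MINO libraries at 24 h called PAX5 (adjusted p = 0.0434) and POU2AF1 (0.00844). PAX5 in MINO at 24 h was 179, 148 and 168 CPM in DMSO and 263, 205 and 198 in treated cells (log2 0.40, SE 0.174, adjusted p = 0.253, paired fit 0.0496). Neither fit called PAX5 in another treatment comparison. EBF1 in UPN-1 at 72 h went from 74.5, 76.9 and 69.2 to 86.6, 96.4 and 103 CPM without overlap (log2 0.39, SE 0.126, adjusted p = 0.335, paired fit 0.002). POU2AF1 differed in sign between lines at 24 h. In MINO it was 135, 139 and 141 CPM in DMSO against 191, 229 and 176 (log2 0.50, SE 0.274, adjusted p = 0.374, paired fit 0.014). UPN-1 had 169, 170 and 147 against 140.0, 145 and 111 (log2 -0.30, SE 0.2, adjusted p = 1.0, paired fit 0.0131), and again lower values in 3 of 3 pairs at 72 h (log2 -0.29, SE 0.199, adjusted p = 0.891, paired fit 0.00423). JEKO POU2AF1 was lower in 3 of 3 pairs at 72 h, at 0.681 to 0.962 of the DMSO value, and was not called.

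No member's treatment effect differed between 24 h and 72 h in any line (0%, 0.0133% and 0% of all genes called in JEKO, MINO and UPN-1). The same count was 0 in the paired fit, where 0%, 0.679% and 0.0459% of genes were called. At an unadjusted p under 0.05 they had 2, 1 and 0 members (1.79%, 5.02% and 1.52% of all genes), and DESeq2 called 0 in each. The effect differed among lines for no member at 24 h (0.106% of all genes), with 3 members at an unadjusted p under 0.05 (7.37% of all genes). DESeq2 called SPIB there (adjusted p = 0.00244, 1.16% of all genes), as did a minimum count of 50 (0.049). The fit without the low-count filter called SPIB (0.000846) and IRF8 (0.00247), and so did the replicate block (0.0236 and 0.00679).

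Few members were called for time in culture in DMSO cells, and in no line beyond the share of all genes. In JEKO 2 of 10 were called (31.7% of all genes), PRDM1 as above and IRF4, which rose from 126, 143 and 155 CPM at 24 h to 189, 187 and 208 at 72 h (log2 0.47, SE 0.158, adjusted p = 0.0371). The IRF4 call held without the second library at 72 h (adjusted p = 0.0468) and ended without any of the other 5 libraries, with adjusted p up to 0.121. In MINO none was called (0.0932%), although the times did not overlap for 6 of 10 (32.4% of all genes). IRF8, POU2AF1, PRDM1, IRF4 and SOX11, with higher values at 72 h, had an unadjusted p under 0.05 (5 of 10, against 23.8% of all genes). SPIB had lower values at 72 h. IRF8 in MINO was 24.5, 32.0 and 18.8 CPM at 24 h and 49.4, 103 and 48.7 at 72 h (log2 1.41, SE 0.345, adjusted p = 0.111). Among UPN-1 DMSO cells no member was called (1.47%) and none had an unadjusted p under 0.05 (25.5% of all genes).

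Other genes of these programmes were taken from lists. Of 27 further B-lineage transcription factors tested in MINO, 2 rose at 24 h and 4 rose and 2 fell at 72 h. Their medians were 0.17 and 0.02 on the log2 scale, against 0.01 and -0.03 over all genes. Of all genes tested in MINO, 2.39% were called at 24 h and 5.56% at 72 h. TCF4, an E protein of B cells, rose at both times (log2 0.76, adjusted p = 0.0473, then 0.70, adjusted p = 0.04), and ID3, which binds and blocks E proteins, rose at 72 h (0.94, adjusted p = 0.0177). MYB, a factor of immature and cycling cells, fell at 72 h (-1.18, adjusted p = 0.0276), as did ZBTB32, a repressor found in plasmablasts (-1.09, adjusted p = 0.0042). Among 12 tested B-cell identity genes, which PAX5 and EBF1 are known to regulate, 3 rose and none fell at 24 h in MINO, and 3 rose and 1 fell at 72 h, with medians of 0.57 and 0.51. CD22, an inhibitory receptor, rose at 24 h (1.06, adjusted p = 0.0255), and MS4A1, which encodes CD20, rose at 24 h (0.69, adjusted p = 0.046) and 72 h (0.77, adjusted p = 0.0181). CD79A, a signalling chain of the B-cell receptor, rose at 72 h (1.07, adjusted p = 0.0102), as did FCER2, which encodes CD23 (1.18, adjusted p = 0.0461). The other calls in MINO were MEF2C at 24 h (0.68) and IKZF3 (0.71) and ETS1 (0.70) at 72 h, all B-lineage factors that rose, CD79B, which rose at 24 h (0.69), and CIITA, the regulator of class II antigen presentation, which fell at 72 h (-0.51), also named after their values were seen. In JEKO and UPN-1 no gene of either list was called without the pairing. The paired fit called some there at 72 h, among them MS4A1 in UPN-1 (0.61, adjusted p = 3.1e-05) and JEKO (0.59, adjusted p = 0.027) and CD79A in UPN-1 (0.38, adjusted p = 0.000189). For the mean over lines MS4A1 was called at 24 h (0.39, adjusted p = 0.0338) and 72 h (0.63, adjusted p = 5.05e-05). Also higher at 72 h were CD79A (0.58, adjusted p = 0.0011), FCER2 (0.93, adjusted p = 0.0179) and ID3 (0.47, adjusted p = 0.0315). Lower there were CIITA (-0.26, adjusted p = 0.032), MYB (-0.59, adjusted p = 0.00374) and ZBTB32 (-0.67, adjusted p = 0.0391).

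Plasma cell genes, partners of the repressors and SOX11 targets formed 3 further lists. Of 16 plasma cell genes in MINO, 1 fell at 24 h and 2 fell at 72 h, with medians of 0.22 and 0.01. Over all genes in MINO the medians were 0.01 and -0.03, and 2.39% and 5.56% were called. FKBP11, a chaperone of the secretory pathway, fell at both times (-0.99, adjusted p = 0.0185, then -1.13, adjusted p = 0.0042), and SEC11C, of the signal peptidase, fell at 72 h (-0.61, adjusted p = 0.0345). PRMT5, an arginine methyltransferase that partners both BCL6 and PRDM1, was the single call among 14 partners and corepressors in MINO, at 24 h (-0.83, adjusted p = 0.00969) and at 72 h (-0.66, adjusted p = 0.0113). The 8 genes listed as SOX11 targets had no call in any line or time without the pairing, with medians between -0.25 and 0.05. In JEKO and UPN-1 these 3 lists held no call without the pairing, and the paired fit called at most 6 of the plasma cell genes, in UPN-1 at 72 h (2 higher, 4 lower). For the mean over lines SDC1, the plasma cell antigen CD138, rose at 72 h (0.83, adjusted p = 0.00315), as did the elongation factor gene ELL2 (0.85, adjusted p = 0.0492), and TNFRSF17 fell (-1.02, adjusted p = 0.00995). PRMT5 fell at 24 h (-0.32, adjusted p = 0.0325).

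Several genes followed the members across the 12 groups once each line's mean had been subtracted. The closest to SOX11 of 11825 genes were PPM1L (Pearson r = 0.942), RNU6-395P (0.935) and STX6 (0.932). IRF4 was closest to TNFRSF17, which encodes the plasma cell receptor BCMA (0.961), BCL6 to WDR48 (0.964), PRDM1 to CLPX (0.975) and SPIB to MYL6 (0.974). POU2AF1 was closest to AHDC1 (0.969), IRF8 to ZFP36L2 (0.96), PAX5 to RAP1A (0.956), BACH2 to MAP1LC3B2 (0.946) and EBF1 to SARNP (0.935). Among the members themselves the highest value was 0.91, between POU2AF1 and IRF8. These are the highest of many values over 12 points that share libraries and scaling, and they describe the pattern only.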

How the data were processed

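The authors deposited 1 table of whole-number read counts per library, with 58302 Ensembl gene IDs and 5 summary lines, which were left out of library sizes and tests. Reads in no feature made up 43.3% to 45.9% per library. HISAT2 2.2.1, HTSeq 0.13.5 and GRCh38 are named in the submitters' processing notes. Strandedness and annotation release are not given in the sources used here. Symbols came from GENCODE v44, which held 57532 of the IDs. Counts were fitted with edgeR 4.0.16 (R 4.3.3, limma 3.58.1) by its quasi-likelihood test, with TMM scaling and filterByExpr (minimum count 10, minimum total 15). The 12 libraries of a line made 1 model for treatment and time, and all 36 made 1 for means over lines, differences among lines and lines in DMSO. P-values were adjusted by Benjamini-Hochberg over all genes tested, with calls under 0.05, and SE is the log2 change over the root of F. CPM used TMM sizes over 36 libraries, and CPM per kilobase divided by the length of all annotated exons of a gene. Groups are those of the labels, which call the numbers biological replicates. Same-numbered DMSO and GS716054 libraries of 1 time correlated in their deviations from the group mean (r 0.055 to 0.595, over 0.1 in 17 of 18 pairs, with the exception in JEKO at 24 h). Libraries of different numbers within a line had r of -0.523 to 0.33 (median -0.078, over 0.1 in 9 of 108 pairs). Alternatives were DESeq2 1.42.0, other scaling, filters and samples in the fit, replicate terms and leaving out libraries. The scripts were tested on simulated counts.

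All 10 members are reported whatever they show. From each list, up to 4 genes are named, those called in a treatment comparison with the largest log2 change and a mean log2 CPM of at least 1. For likeness, the 3 closest genes are named for SOX11 and 1 for each other member, by Pearson r of group means (prior count 2). The members and lists were chosen with earlier results of these data known. A marker gene and a list gene, with the results that need them, are not reported here.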

Additional observations from a re-analysis of the deposited data

Results flagged for a closer look

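The response of 2 genes to GS716054 at 72 h differed among the 3 lines by the test of the difference itself in the edgeR model of all 36 libraries. PRDM1 gave an adjusted p of 0.0333, with log2 changes of 1.34 (JEKO), -0.56 (MINO) and 0.48 (UPN-1). Treated libraries were above their same-numbered DMSO partners in 3 of 3 pairs of JEKO and UPN-1 and below them in 3 of 3 pairs of MINO. The call ended, with adjusted p up to 0.0962, when 1 of 7 of the 18 libraries was left out (DMSO replicates 1 and 2 and treated replicates 1 and 3 of JEKO, and DMSO replicate 2 and treated replicates 1 and 3 of MINO), and without MINO replicate 2 of both treatments (adjusted p = 0.0512) or JEKO replicate 1 of both (adjusted p = 0.118). SPIB gave an adjusted p of 0.0168, with log2 changes of -0.15 (JEKO), 1.06 (MINO) and -0.01 (UPN-1). Its call was lost without GS716054 replicate 1 or 3 of MINO, and passed without MINO replicate 2 of both treatments (adjusted p = 0.0132) and without JEKO replicate 1 of both (adjusted p = 0.0221).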

How the results depend on the processing

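No called value changed direction. Signs changed only for values called in neither setting, such as the mean change of PAX5 at 72 h (0.02, and -0.02 in another setting). Of 316 recomputed counts of called members, 250 equalled the value in the report or stayed within 1.5 times it, and 66 did not. The 250 include counts of 0 that stayed 0, so they do not measure how often a call was kept. Counts below are members called of 10, for settings that moved them. The share of all genes called follows in brackets where given, and a count without it cannot be set against all genes. The replicate block, an additive number within line, called 3 in MINO at 24 h (6.61%) and 3 at 72 h (10.2%). In UPN-1 at 72 h it called 1, IRF4 (1.46%). It called 1 for the mean over lines at 24 h (2.36%) and 3 at 72 h (8.6%), and 2 for the difference among lines at 24 h (1.37%). The block within each time, added after seeing the data, called 6 and 3 in MINO at 24 h and 72 h (15.8% and 20.2%). It called 2 and 5 in UPN-1 at 24 h and 72 h (1.5% and 7.47%), and 2 in JEKO at 72 h (3.34%). For the mean over lines it called 5 at 24 h (9.2%) and 6 at 72 h (16.7%), and for the difference among lines 4 at 24 h (5.74%). At 24 h JEKO missed the correlation rule for pairing. In the time comparison of MINO DMSO cells the additive block called 5 of 10 (12.1%), where the numbers did not pair the samples by their correlation.

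Without the low-count filter there were 3 calls in MINO at each time, 1 in UPN-1 at 24 h (SOX11), 2 for the mean at each time, 2 for the difference among lines at 24 h, and 1 and 5 for time in DMSO in JEKO and MINO. A minimum count of 50 gave 1 in MINO at 24 h and 1 for the difference among lines at 24 h. In MINO, DESeq2 called 2 members at either treatment time, with 6.23% of all genes at 24 h and 10.4% at 72 h. The main fit called 2.39% and 5.56% of all genes there. For the later time DESeq2 called 2 members of JEKO (1.36%) and 1 of UPN-1 (1.08%). Its count was 1 for the difference at 24 h (1.16%) and 4 for time in MINO (6.53%). A fit of all 36 libraries called 3 in MINO at each time, and 1 and 4 for time in JEKO and MINO. Only the 6 libraries compared gave 5 in MINO at 24 h and 0 in JEKO and MINO at 72 h. Without replicate 2 of MINO at 72 h in both treatments, an added setting, 2 were called in MINO, 2 for the mean, 1 for the difference and 3 for time in MINO. Without replicate 1 of JEKO, also added, 0 were called in JEKO and 1 for the difference.

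Leaving out 1 library at a time gave 0 to 1 calls in JEKO at 72 h, 0 to 2 in MINO at 72 h, 1 to 3 for the mean at 72 h, and 0 to 1 and 0 to 2 for the difference among lines at 24 h and 72 h. It gave 5 to 6 for MINO against JEKO, 6 to 7 for UPN-1 against MINO and 1 to 2 for time in JEKO. The cause was not tested. No paired analysis was possible because different lines share no culture, for the comparisons of lines in DMSO.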
